A study of Mus musculus with 12 samples.

Results

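Connexins are the membrane proteins of gap junctions, the channels through which neighbouring cells pass ions and small metabolites. Several connexins assemble into a half-channel in one cell, which docks with a half-channel of the next cell. In the cochlea, Gjb2 and Gjb6 are best known from the network that joins supporting cells and fibrocytes, and loss of either gene is a cause of inherited deafness. Gja1 is widespread in mesenchyme, Gjb1 and Gjc3 are connexins of myelinating glia, Gjc1 is found in vascular and cardiac tissue among others, and Gjd2 is the main connexin of electrical synapses between neurons. These 7 genes were taken by name from the 24489 genes of a single-cell count table. The table also holds 13 other connexin genes, which brings the family to 20.

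The cells came from the inner ear of mouse embryos and pups that carried the Cre-dependent red reporter Ai14. In 11 of 12 plates the labels name PVcre, which is driven by the parvalbumin gene, and in the remaining plate, E14.5 replicate 2, they name TrkCcre, driven by the gene of a neurotrophin receptor. Red cells were sorted 1 per well, so every class described here is limited to cells that were red at sorting, whether by recombination or by passing the gate otherwise. The labels give 3 to 4 pooled animals per experiment, and the study's methods a lower minimum. The study's methods also name the Ntrk3 (TrkC) driver for E14.5, which differs from the PVcre label of E14.5 replicate 1. In all comparisons of later stages with E14.5, stage and Cre driver therefore cannot be fully told apart. The tissue was the modiolus region at E14.5 and E15.5 and the spiral ganglion at later stages. Stage P3 and the embryonic stages E14.5, E15.5 and E18.5 had 2 plates each, E16.5 had 3 and E17.5 had 1. No plate received a treatment, and no gene was deleted.

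Of 4608 wells, 4226 passed the filter, which asked for over 1000 genes with a read and under 5% of reads from spike-in RNA. A plate held 125 to 382 such cells and 80997594 to 303906928 gene counts. The labels do not name cell types, so cells were clustered within stages, with the connexin genes kept out of the clustering, and clusters were named from marker genes. This gave 2298 cells like spiral ganglion neurons (SGN-like), 1276 glia-like cells, 578 cells like otic mesenchyme (OM-like) and 74 hair cell-like (HC-like) cells. Of the HC-like cells, 23 were like inner hair cells (IHC-like), 12 like outer hair cells (OHC-like), 27 like vestibular hair cells and 12 were left unnamed. In every summed class used below, all 10 SGN markers, all 9 glial markers, all 10 hair cell markers or, on the plates compared, all 10 OM markers had reads in the class they define. The leading 10 genes of the OHC-like cluster held none of the OHC markers, although all 6 OHC markers had reads on both plates, and the unnamed hair cell cluster was led by the matrix genes Col1a2 and Col3a1.

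Cells that met a marker list of their own class often also carried markers of another class. Cells with at least 3 markers of another class at 10 reads per 1000000 (CPM) or more were 73 of 74 HC-like cells, 63.9% of SGN-like cells, 33.1% of glia-like cells and 16.3% of OM-like cells. A list of supporting-cell markers counted as another class for HC-like cells only, so their share is not on the same footing as the others. The plates fall into series, and the 6 plates whose labels carry SS2_20 (E14.5, E15.5, E16.5 replicate 3 and E17.5) differed from the others. Summed glial markers in SGN-like cells were 28.0 to 179 CPM on the SS2_20 plates and 838 to 3481 CPM on the other plates. Summed SGN markers in glia-like cells were 465 to 674 CPM on the SS2_20 plates and 3032 to 6985 CPM on the others. The 3 large classes were therefore compared on the SS2_20 plates alone, with stage as a covariate, and these values are given beside each connexin they touch.

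Gjb2 and Gjb6, the pair that was high in HC-like cells, lie next to each other on chromosome 14 of GRCm38 (mm10), both on the minus strand. Gjb2 covers chr14:57098600-57104702 in 2 exons, Gjb6 covers chr14:57123303-57133611 in 3 exons, and 18600 bases separate them. The 250 bases before each start site are shown because these neighbours were high in the same hair cells. They are RefSeq sequences of GRCm38.p6, read 5′ to 3′ on the gene's strand, at chr14:57104703-57104952 for Gjb2 and chr14:57133612-57133861 for Gjb6. Capitals mark the GC box GGGCGG or its reverse complement CCGCCC.
Gjb2: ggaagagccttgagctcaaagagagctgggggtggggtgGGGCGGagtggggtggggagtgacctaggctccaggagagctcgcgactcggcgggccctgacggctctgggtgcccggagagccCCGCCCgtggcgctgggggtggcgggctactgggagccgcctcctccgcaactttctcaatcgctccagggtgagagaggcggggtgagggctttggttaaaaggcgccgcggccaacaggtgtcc
Gjb6: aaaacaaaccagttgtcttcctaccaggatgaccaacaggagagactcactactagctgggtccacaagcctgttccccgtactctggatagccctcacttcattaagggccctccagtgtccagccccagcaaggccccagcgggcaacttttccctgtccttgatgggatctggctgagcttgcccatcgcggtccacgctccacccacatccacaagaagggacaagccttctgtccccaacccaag
The Gjb2 window held 2 GC boxes and was 69.2% G or C, and the Gjb6 window held none and was 56.8% G or C. Among 32851 promoter windows of the same length, 32.74% held at least 1 GC box on either strand, and the median GC content was 52.4%. Neither window held TATAAA, which was present in 12.37% of all windows. ACAAAG and ACAATG, the core letters bound by Sox-family factors, were also not in either window, against 16.46% and 10.69% of all windows. The other members lie elsewhere, with Gja1 on chromosome 10, Gjb1 on X, Gjc1 on 11, Gjc3 on 5 and Gjd2 on 2. Gjd2 overlaps A530058N18Rik by 57 bases, and whether counting used the strand is not given in the sources used here.

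In HC-like cells at E18.5, Gjb2 and Gjb6 were the leading connexins, and the other 5 members were low. Gjb2 was at 890 and 708 CPM in the HC-like cells of the 2 E18.5 plates, and Gjb6 at 202 and 140 CPM. Per kilobase of transcript, the scale on which genes can be compared, Gjb2 reached 332 ± 53.7 and Gjb6 81.3 ± 20.7 CPM per kb (SD, n = 2 plates), and the next member, Gjc1, 2.62 ± 0.769. Reads of Gjb2 were found in 72.5% of 69 cells and reads of Gjb6 in 59.4%. After thinning to 100000 counts a cell, the Gjb2 share was 70.0%. At E17.5, where 1 plate gave 5 HC-like cells, Gjb2 was at 1578 CPM and Gjb6 at 169 CPM, with 4 of these cells in the unnamed cluster. These 4 cells, all with 3 or more supporting-cell markers at 10 CPM, held 1607 Gjb2 and 172 Gjb6 reads, and 1 of them had 9536 CPM of Gjb2. The only named cell, an IHC-like one, had 1 Gjb2 read (4.13 CPM) and no Gjb6 read.

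Cochlear HC-like cells (all but the vestibular ones, 24 and 18 cells on the 2 plates) were compared with the SGN-like cells of the same plates. Gjb2 was at 1277 and 1168 CPM in cochlear HC-like cells and at 0.791 and 0.961 CPM in SGN-like cells. The log2 difference was 10.42 (SE 0.20), with an adjusted p of 4.4e-05 in edgeR's quasi-likelihood test. Gjb6 was at 275 and 185 CPM against 0.0609 and 0.0506 CPM, a log2 difference of 11.96 (SE 0.37, edgeR adjusted p 6.1e-05). Both genes were far above the SGN-like level on each plate, with no overlap. In all, 6 of 7 members were called, 3 higher and 3 lower, where 52.4% of 15923 genes were called, and the members' median log2 difference was 0.01 against −0.08 over all genes. Gja1 was higher by 1.23 (SE 0.32, edgeR adjusted p 0.026), at 7.08 and 7.92 CPM against 3.296 and 3.042 CPM. That call was lost with the plate as a block (1.23, adjusted p 0.094), without the unnamed hair cells (0.60, adjusted p 0.25) and with all HC-like cells (0.79, adjusted p 0.089), all in edgeR.

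The 3 members that were lower in cochlear HC-like cells were Gjc1, Gjc3 and Gjd2. Gjd2, the neuronal connexin, was at 1.14 and 3.81 CPM in cochlear HC-like cells and at 17.4 and 18.3 CPM in SGN-like cells (log2 difference −2.90, SE 0.52, edgeR adjusted p 0.0079). Gjc1 was at 8.97 and 6.25 CPM against 17.6 and 17.2 CPM (log2 difference −1.20, SE 0.26, edgeR adjusted p 0.015). Gjc3 was at 9.10 and 8.99 CPM against 64.4 and 58.3 CPM (log2 difference −2.78, SE 0.15, edgeR adjusted p 0.00020), and the SGN-like sums it was set against held 3459 to 3481 CPM of glial markers. Gjb1 did not differ by the test (0.01, SE 0.63, edgeR adjusted p 0.99).

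Within the hair cells, Gjb2 and Gjb6 were high in IHC-like cells and low in OHC-like cells. Gjb2 was at 1744 and 1369 CPM in IHC-like cells (10 and 12 cells) and at 10.4 and 78.5 CPM in OHC-like cells (8 and 4 cells). The log2 difference was 5.32 (SE 0.65, edgeR adjusted p 0.00066). Gjb6 was at 325 and 164 CPM in IHC-like cells and at 0 and 10.4 CPM in OHC-like cells, a log2 difference of 6.06 (SE 0.78, edgeR adjusted p 0.00094), which DESeq2 did not call (adjusted p 0.17). Over single IHC-like cells the lowest, median and highest Gjb2 levels were 0, 1638 and 2623 CPM, and over OHC-like cells 0, 11.5 and 825 CPM. The highest OHC-like cell was the only one of 12 with Gjb6 reads (128 CPM), and it also had the highest supporting-cell marker sum among them, 9253 CPM. Of 7 members, 4 could be tested here and 2 were called, both higher, against 8.76% of 11832 genes. Gja1 (1.35, edgeR adjusted p 0.58) and Gjc1 (0.66, edgeR adjusted p 0.85) were not called. Gjc3 had no reads in 22 IHC-like and 12 OHC-like cells, which allows a share of cells with a read of up to 13.6% and 25%.

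Vestibular HC-like cells (13 and 14 cells) had less of both genes than cochlear HC-like cells, although they were not at 0. Gjb2 was at 93.0 and 88.2 CPM, below the 1277 and 1168 CPM of cochlear HC-like cells (log2 difference −3.74, SE 0.20, edgeR adjusted p 0.00063). Gjb6 was at 51.8 and 81.1 CPM against 275 and 185 CPM (log2 difference −1.78, SE 0.29, edgeR adjusted p 0.011). The ratio of the 2 genes thus differed between the classes: per kilobase, vestibular HC-like cells had 37.7 ± 1.40 of Gjb2 and 31.6 ± 9.83 of Gjb6, and cochlear HC-like cells 508 ± 32.1 and 109 ± 30.4 CPM per kb (SD, n = 2 plates). The cochlear group mixes classes, and IHC-like cells held 11880 and the 8 unnamed cells 5772 of its 17776 Gjb2 reads. Against OHC-like cells alone the order was the other way. Mean Gjb2 was 44.4 CPM in OHC-like and 90.6 CPM in vestibular HC-like cells, and mean Gjb6 5.21 and 66.5 CPM. Of 6 members tested between vestibular and cochlear HC-like cells, 3 were called lower, against 9.98% of 13267 genes called in either direction. The third was Gjc3, with 1 read in the vestibular sums and 131 in the cochlear ones, all of them in 2 unnamed cells (232.8 and 124.1 CPM) that also held 8206 and 5704 CPM of glial markers. The pooled ratio of cochlear to vestibular Gjc3 was 78.9 (95% counting interval 13.9 to 3142).

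Gjb2 and Gjb6 were found in the same hair cells. Of 69 HC-like cells at E18.5, 41 had reads of both genes, 9 of Gjb2 alone, none of Gjb6 alone and 19 of neither. In IHC-like cells the counts were 17, 1, 0 and 4, and in vestibular HC-like cells 16, 0, 0 and 11. In OHC-like cells they were 1, 7, 0 and 4. Pearson's r between the log2(CPM + 1) of the 2 genes was 0.98 over 22 IHC-like cells, 0.96 over 27 vestibular and 0.70 over 12 OHC-like cells, as a description over cells that share 2 plates and their depth.

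Supporting cells are the neighbours of hair cells and are known for Gjb2 and Gjb6, so their markers were read in the same cells. The list held Sox2, Lfng, Fgfr3, Hes5, Hey2, Lgr5, Jag1, Epyc, Otogl, Tectb and Otog. On the 2 plates, all 11 had reads in the cochlear HC-like and the OHC-like sums, 9 or 10 in the IHC-like sums (Epyc and Fgfr3 were each at 0 in at least 1), 9 to 11 in the vestibular sums and 10 or 11 in the unnamed ones. Their summed level was 4206 and 2492 CPM in IHC-like, 1179 and 2759 in OHC-like, 6830 and 3766 in vestibular and 10770 and 9027 CPM in the unnamed HC-like cells. In SGN-like cells of all plates the sum was 51.3 to 202 CPM. Vestibular HC-like cells thus had the larger marker sum and the lower Gjb2 level of the 2 named classes with most cells.

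Among IHC-like cells, the connexin reads were confined to cells with supporting-cell markers at E18.5. In the 4 IHC-like cells with fewer than 3 of the 11 markers at 10 CPM, there was no read of Gjb2 or Gjb6, and in the 18 with 3 or more, all had Gjb2 (pooled 1732 CPM) and 17 had Gjb6 (264 CPM). The 4 cells had a median of 4500.5 detected genes and 193604 counts, and the 18 had 11048.5 genes and 363426 counts. In vestibular HC-like cells, 9 cells below 3 markers had no read of either gene, and 16 of 18 cells above had reads of both (pooled 119 CPM of Gjb2 and 89.6 CPM of Gjb6). All 12 OHC-like cells had 3 or more markers, and their pooled Gjb2 was 33.0 CPM. The OM and glial marker lists split IHC-like cells alike. With either list, 17 cells at 3 or more markers all had both genes, and 5 below had 2 Gjb2 reads and no Gjb6 read. By glial markers, 15 of 15 vestibular HC-like cells above and 1 of 12 below had both genes. No vestibular HC-like cell reached 3 OM markers. Among OHC-like cells, Gjb2 reads were in 6 of 9 below 3 OM markers and 3 of 5 below 3 glial markers. On the same scale, Pearson's r between Gjb2 and the supporting-cell marker sum was 0.92 in IHC-like, 0.87 in vestibular and 0.53 in OHC-like cells, again as a description. Leaving out the hair cells above the median marker sum of their class and plate kept Gjb2 (8.51) and Gjb6 (9.61) called against SGN-like cells. Between IHC-like and OHC-like cells the differences were then 5.97 for Gjb2 and 10.52 for Gjb6, with OHC-like cells on 1 plate, which is assumed to vary like the IHC-like plates. In that setting, chosen after seeing the data, Gjc1, Gjc3 and Gja1 lost their calls against SGN-like cells (edgeR adjusted p 0.34, 0.16 and 0.36), and Gjb6 its call between vestibular and cochlear cells (−1.13, edgeR adjusted p 0.47). The study reports RNA of both genes in supporting cells and also in inner hair cells at E18.5, by in situ hybridization. The part of supporting-cell RNA in the Gjb2 and Gjb6 levels of HC-like cells was not tested.

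**Figure D1:**
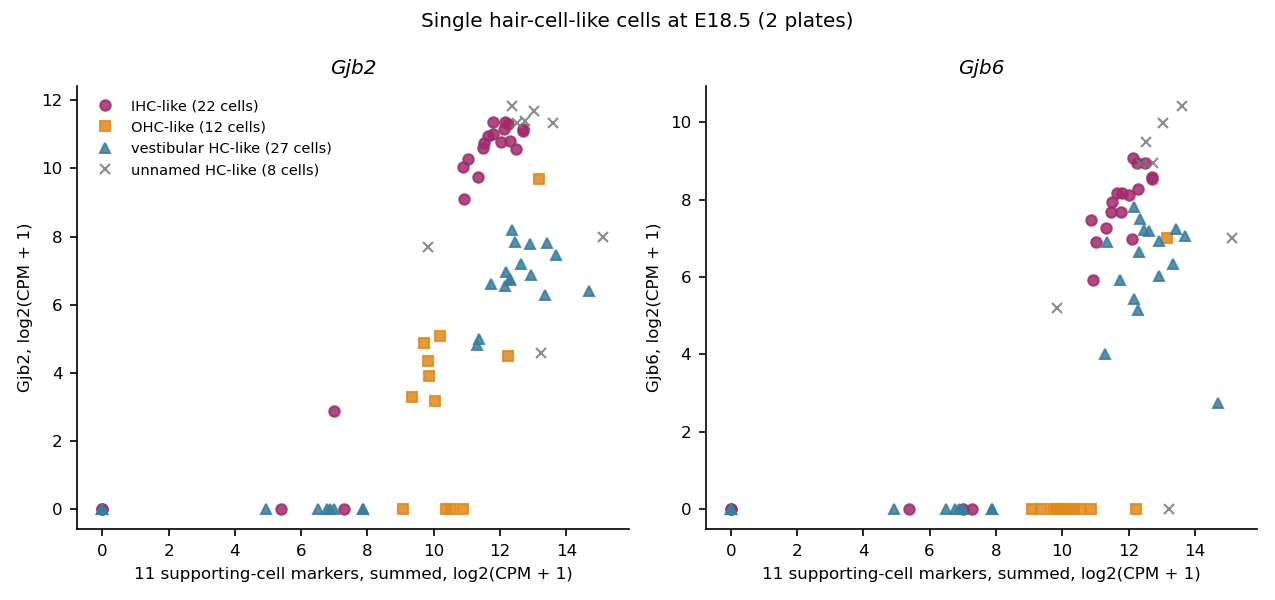
Single HC-like cells at E18.5, with the summed level of 11 supporting-cell markers on the x axis and the level of Gjb2 (left) and Gjb6 (right) on the y axis, both as log2(CPM + 1), and 1 point per cell coloured by class. Of 22 IHC-like cells, the 4 with neither gene are among the 5 with the lowest marker levels, and 11 of the 12 OHC-like cells lie low on the y axis without being the lowest on the x axis.

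In OM-like cells, Gja1 was by stage mean the highest connexin per kilobase at E14.5 and E16.5, and Gjb2 and Gjb6 were carried by few cells. Otic mesenchyme surrounds the epithelium and later gives fibrocytes and the bony capsule. Over the 6 SS2_20 plates Gja1 was at 157 and 262 CPM at E14.5, 287 and 394 at E15.5, 186 at E16.5 and 84.0 at E17.5. In SGN-like cells of the same plates it was at 0 to 1.66 CPM, and in glia-like cells at 32.2 to 54.7 CPM, so the 3 classes did not overlap. Gja1 was higher in OM-like than in SGN-like cells by 8.82 (SE 0.62, edgeR adjusted p 2.1e-08) and higher than in glia-like cells by 2.32 (SE 0.44, edgeR adjusted p 0.0012), both on the log2 scale. Reads of Gja1 were found in 61.7% of OM-like cells at E14.5, 71.6% at E15.5, 62.8% at E16.5 and 36.4% at E17.5. The other E16.5 plates had 162 and 41.4 CPM, and on the second of these Gja1 lay below Gjc1 (13.01 and 26.1 CPM per kb).

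Against SGN-like cells, 5 of 7 members were called in OM-like cells, 4 higher and 1 lower, against 57% of 14940 genes, with a median log2 difference of 4.60 over the members and −0.0048 over all genes. Gjc1 was at 62.3 to 88.1 CPM in OM-like and 15.53 to 30 CPM in SGN-like cells of the SS2_20 plates, higher by 1.69 (SE 0.15, edgeR adjusted p 1.9e-07). Its OM-like mean was 74.8 ± 9.64 CPM (SD, n = 6 plates), and it did not differ by the test between OM-like and glia-like cells (0.15, SE 0.14, edgeR adjusted p 0.48). Gjd2 had no read in 560 OM-like cells, which allows a share of cells with a read of up to 0.536%, and was at least 869.7-fold lower than in SGN-like cells, taking 3 counts over the group as the floor. Gjc3 (1.55, edgeR adjusted p 0.16) and Gjb1 (4.60, edgeR adjusted p 0.084) were not called. Gjc3 was called without E17.5 replicate 1 (2.91, edgeR adjusted p 0.030), and Gjb1 in DESeq2 (adjusted p 0.013).

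Gjb2 and Gjb6 in OM-like cells varied by more than 10-fold between plates. Gjb2 was at 1.80 and 17.46 CPM at E14.5, 414 and 119 at E15.5, 69.6 at E16.5 and 10.7 at E17.5. Gjb6 was at 3.83 and 12.6 CPM at E14.5, 65.6 and 59.4 at E15.5, 32.3 at E16.5 and 43.5 at E17.5. Both were lowest on an E14.5 plate and highest on the E15.5 plates, and each OM-like sum was above the SGN-like sum of its plate. Against SGN-like cells Gjb2 was higher by 9.52 (SE 1.44, edgeR adjusted p 4.8e-05) and Gjb6 by 6.56 (SE 2.18, edgeR adjusted p 0.018). The Gjb6 call was lost without E15.5 replicate 1 (5.32, adjusted p 0.059) or replicate 2 (5.39, adjusted p 0.075), with edgeR in both cases. Against glia-like cells 4 of 7 members were called, 2 in each direction, against 25.2% of genes. Gjb6 was higher by 6.45 (SE 2.07, edgeR adjusted p 0.033), a call lost without any 1 of 3 plates, E14.5 replicate 1, E15.5 replicate 1 or E15.5 replicate 2, and without cells with 3 or more markers of another class. Gjb2 was not called (2.57, SE 1.06, edgeR adjusted p 0.090), except without E14.5 replicate 1 (3.29, edgeR adjusted p 0.036) and in 2 other settings of the cell filter and the clustering.

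Few OM-like cells carried Gjb2, and the 3 E15.5 cells with the most Gjb2 had no Gja1 read. Gjb2 reads were found in 2.48% of OM-like cells at E14.5, 29.6% at E15.5, 25.6% at E16.5 and 11.4% at E17.5. At E15.5, of 81 cells, 12 had reads of both Gja1 and Gjb2, 46 of Gja1 alone and 12 of Gjb2 alone. The 13 E15.5 cells with 3 or more supporting-cell markers held 4252 of the 5220 Gjb2 reads, at 1279 CPM against 59.2 CPM in the other cells. Of them, 3 cells of E15.5 replicate 1 had 6325, 5195 and 3882 CPM, and the median of the 13 was 497 CPM. In these 13 cells Gja1 was at 1.80 CPM, against 410 CPM in the other cells, and Gjb6 at 97.1 against 55.4 CPM. The E15.5 sums also stood apart in the supporting-cell markers, with 906 and 1348 CPM where the other OM-like sums on SS2_20 plates had 21.6 to 207 CPM. At E14.5 the 11 OM-like cells with 3 or more supporting-cell markers had no read of Gjb2 or Gjb6, and Gja1 at 63.3 CPM against 220 CPM in the rest. At E16.5 the 5 such cells had 5.22 CPM of Gjb2, against 72.5 CPM in the other 81. At Leiden resolution 2, a setting that splits clusters more finely, 8 and 5 cells of the 2 E15.5 plates were named supporting cell-like. The OM-like cells of these plates were then 30 and 36, where the main setting had 38 and 43. The E15.5 OM-like levels given here include the cells of the main setting. The part of epithelial RNA in these levels was not tested.

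Between E15.5 to E17.5 and E14.5 no member was called in OM-like cells (0 of 6 tested), where 1 of 15824 genes was (0.00632%). At an unadjusted p under 0.05 there were 652 genes in edgeR, and DESeq2 called 102 after adjustment. Gjb2 differed by 2.54 (SE 1.21) and Gjb6 by 2.54 (SE 1.35) on the log2 scale, both with an edgeR adjusted p of 1. Gjc1 differed by 0.02 (SE 0.23) and Gja1 by −0.41 (SE 0.50). The E17.5 sum also held 19530 CPM of 6 chondrogenic markers.

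**Figure D2:**
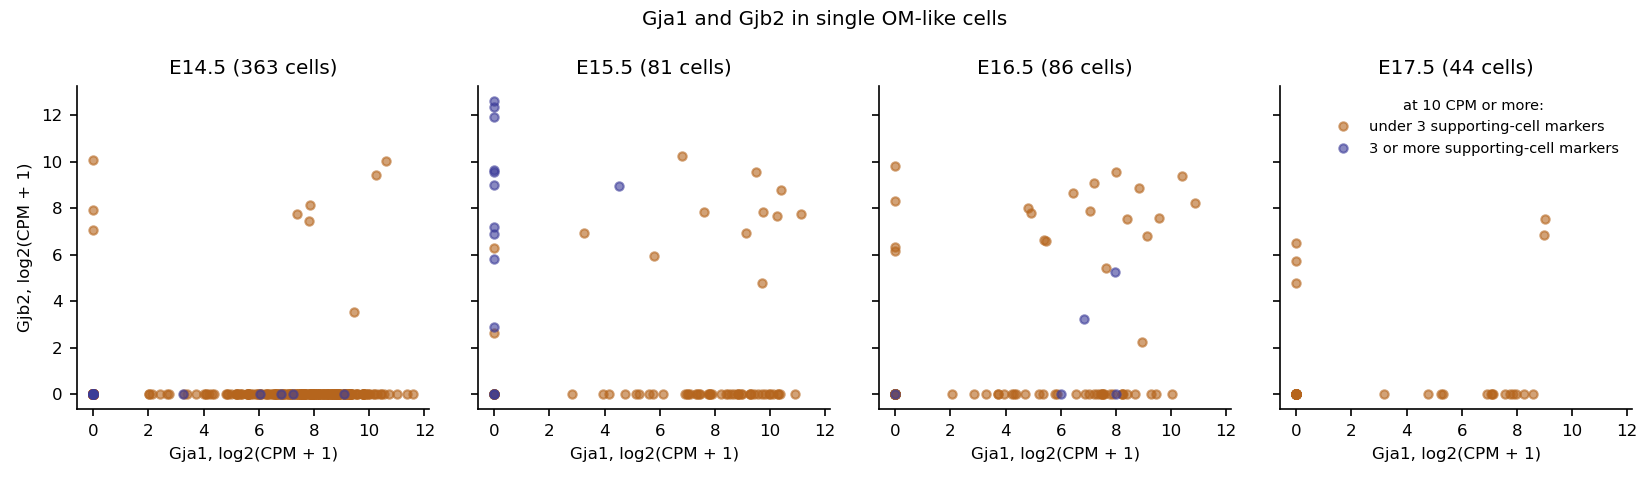
Single OM-like cells in 4 panels by stage (E14.5, E15.5, E16.5 and E17.5, with 363, 81, 86 and 44 cells), with Gja1 on the x axis and Gjb2 on the y axis as log2(CPM + 1). Colour marks cells with 3 or more supporting-cell markers at 10 CPM, among them the 3 E15.5 cells with the most Gjb2, which had no Gja1 read.

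In glia-like cells, Gjc3 was by stage mean the leading connexin per kilobase at every stage, with Gjc1 next to it. On E16.5 replicate 2 the order was the other way round (8.98 CPM per kb of Gjc3 and 23 of Gjc1), and the E16.5 means, 28.8 ± 25.2 and 25.2 ± 4.81 CPM per kb (SD, n = 3 plates), differed by less than their spread. Gjc3, a connexin of Schwann cells and oligodendrocytes, was at 136 and 127 CPM at E14.5, 161 and 185 at E15.5, 229 on the SS2_20 plate of E16.5 and 373 at E17.5. On the same plates it was at 0 to 0.694 CPM in SGN-like and at 0 to 1.93 CPM in OM-like cells. The glia-like level was higher than the SGN-like one by 10.50 (SE 0.79, edgeR adjusted p 3.5e-08), and OM-like differed from glia-like cells by −8.94 (SE 0.71, edgeR adjusted p 6.4e-07). Reads of Gjc3 were found in 61.3% of glia-like cells at E14.5 and 80.6% at E17.5, and in 0.769% and 2.82% of SGN-like cells. The median depth on the SS2_20 plates was 249624 counts in glia-like and 248120 counts in SGN-like cells.

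Against SGN-like cells, 6 of 7 members were called in glia-like cells, 5 higher and 1 lower, against 56.8% of 14940 genes, and the members' median log2 difference was 6.50 against 0.07 over all genes. Gjb1, whose loss causes an inherited neuropathy, was at 3.38 to 11.02 CPM in glia-like cells, and SGN-like cells of these plates had 1 read in all. Glia-like cells had 706 times the pooled SGN-like level (95% counting interval 127 to 27910, edgeR adjusted p 0.00072). Gja1 was higher by 6.50 (SE 0.58, edgeR adjusted p 2.1e-07). Gjc1 was at 58.0 to 75.8 CPM against 15.53 to 30 CPM, higher by 1.54 (SE 0.15, edgeR adjusted p 4.6e-07). Gjb2 was at 3.79 to 12.4 CPM against 0 to 0.505 CPM (6.95, SE 1.38, edgeR adjusted p 0.00052). The supporting-cell markers summed to 457 to 662 CPM in these glia-like sums, with Epyc at 0 in at least 1 sum, and their part in the Gjb2 level was not tested. At the finer Leiden resolution, E14.5 replicates 1 and 2 had 4 and 8 cells named supporting cell-like. The glia-like cells of these plates were then 104 and 114, where the main setting had 108 and 122. Gjb6 was not called (0.11, SE 2.70, edgeR adjusted p 0.98), with 0 to 6.24 CPM in glia-like cells and 36 reads on 1 of the 6 SGN-like sums. Without that plate, E14.5 replicate 2, it was called higher in glia-like cells (7.71, edgeR adjusted p 0.031).

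Gjb1 was lower in OM-like than in glia-like cells (log2 difference −5.48, SE 1.86, edgeR adjusted p 0.042), but that call was lost without any 1 of 4 plates, both E14.5 plates, E16.5 replicate 3 and E17.5 replicate 1 (edgeR adjusted p 0.12 to 0.14), and with all plates (−2.62, edgeR adjusted p 0.25). The OM-like reads of Gjb1 lay almost all on E15.5 replicate 1, at 5.44 CPM, against 0 to 0.0966 CPM on the other SS2_20 plates.

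With stage, no member was called in glia-like cells between E16.5 and E17.5 together and E14.5, where 0% of 18308 genes were called by edgeR, 1465 had an unadjusted p under 0.05 and DESeq2 called 487. The 3 E16.5 plates differed widely. Gjc3 was at 81.0, 35.9 and 229 CPM on replicates 1, 2 and 3, and SGN markers were higher in the first 2 of these. Over all plates the Gjc3 difference was 0.66 (SE 0.62, edgeR adjusted p 0.78). On the SS2_20 plates alone it was 1.17 (edgeR adjusted p 0.0058), and without cells with 3 or more markers of another class it was 1.24 (edgeR adjusted p 0.0060). At E18.5 the 2 plates had 282 and 244 CPM. Glia-like Gjb2 was at 106 CPM on E16.5 replicate 1, where hair cell markers summed to 2019 and supporting-cell markers to 1151 CPM, and at 1.96 to 12.4 CPM on the other plates. Gja1 was at 51.6 CPM on both E14.5 plates and at 10.6 and 25.5 CPM at E18.5, and its stage difference was not called (−0.91, SE 0.80, edgeR adjusted p 0.76).

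**Figure D3:**
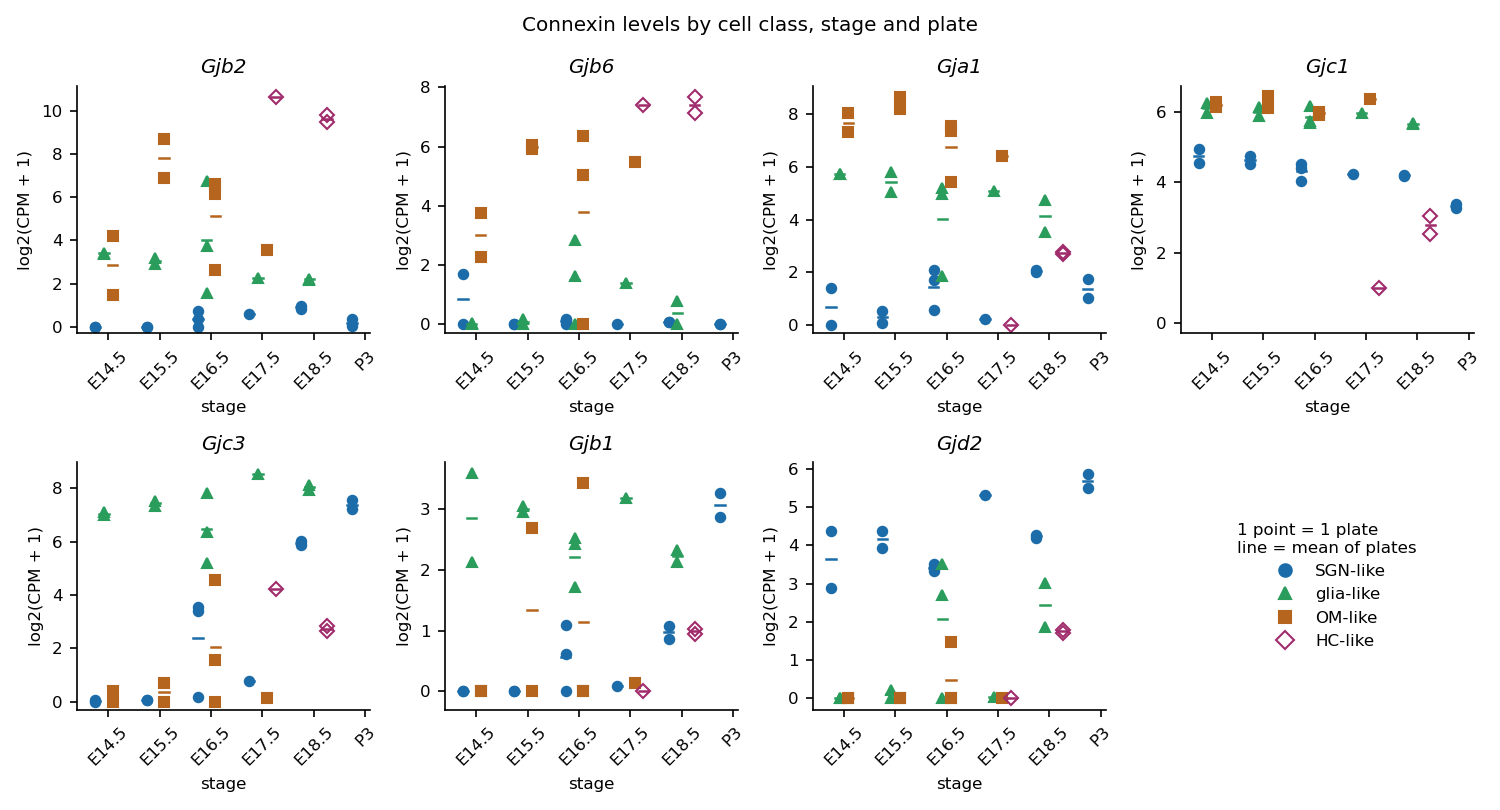
Level of each of the 7 connexin genes by stage in summed SGN-like, glia-like, OM-like and HC-like cells, 1 panel per gene, with stage on the x axis and log2(CPM + 1) on the y axis. Points are plates and short lines are the means of a stage, with Gjb2 highest in HC-like cells, Gja1 in OM-like cells and Gjd2 in SGN-like cells by stage mean, where the class was summed.

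SGN-like cells carried Gjd2, and Gjc1 at a lower level than glia-like and OM-like cells, with little Gja1, Gjb2 and Gjb6 at any stage. Spiral ganglion neurons carry the signal of hair cells to the brainstem. Gjd2 was at 19.9 and 6.44 CPM at E14.5, 14.4 and 19.7 at E15.5, 10.3, 9.001 and 9.81 at E16.5, 39.2 at E17.5, 17.4 and 18.3 at E18.5 and 44.3 and 57.7 at P3. On the SS2_20 plates glia-like cells had 0 to 0.155 CPM. The log2 difference between glia-like and SGN-like cells was −9.40 (SE 1.19, edgeR adjusted p 7.1e-05). In the glia-like cells of the other plates Gjd2 was at 2.63 to 10.45 CPM. Over all plates of a stage, all of its reads at E16.5 and E18.5 were in cells with 3 or more SGN markers. These were 80 reads in 10 of 68 such cells and 66 reads in 16 of 40. The E16.5 plates held 24, 9 and 235 glia-like cells on replicates 1, 2 and 3. Most cells of the E16.5 split were thus on the SS2_20 plate, and marker content and plate series cannot be told apart there. At E14.5, E16.5 and E18.5, glia-like cells with fewer SGN markers had no Gjd2 read, although at E18.5 only 2 cells lay below 3. The 8 reads at E15.5 (1 cell) and the 1 read at E17.5 were in cells with fewer than 3.

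Gjd2 was higher at P3 than at E18.5, the only member called in that comparison, where 24.7% of 18023 genes were called. The 2 P3 plates lay above both E18.5 plates, and the difference was 1.80 (SE 0.41, edgeR adjusted p 0.0088). The call was lost without E18.5 replicate 1 (1.74, edgeR adjusted p 0.077) or replicate 2 (1.82, 0.061), or without P3 replicate 2 (1.59, 0.064). Reads of Gjd2 were found in 14.6% of SGN-like cells at E14.5, 18.2% at E15.5, 26.3% at E16.5, 42.3% at E17.5, 56% at E18.5 and 82.4% at P3, and after thinning in 13.7, 18.1, 22.9, 39.6, 46.6 and 72.6%. The share of cells rose with stage in both forms, while the level in CPM did not follow the same order, so no order of levels is read from the shares. P3 and E18.5 each came from a plate series of their own, so stage and plate series cannot be told apart. From E14.5 Gjd2 differed by −0.47 at E16.5 (SE 0.37, edgeR adjusted p 0.42) and by 0.43 at E18.5 (SE 0.41, edgeR adjusted p 0.49), and which E14.5 plate was used decided both. The E14.5 plates also differ in their driver labels, PVcre for replicate 1 and TrkCcre for replicate 2. Without E14.5 replicate 2, the low plate, the E16.5 difference was −1.07 (edgeR adjusted p 0.014), and without E14.5 replicate 1 the E18.5 difference was 1.50 (edgeR adjusted p 0.0063). Among the SGN-like clusters of P3 replicate 1, Gjd2 was lowest, at 15.4 CPM, in 18 cells of a cluster led by Prune2, Rph3a and Th, and at 37.2 to 48.8 CPM in the others.

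Gjc1 in SGN-like cells was at 30 and 22.3 CPM at E14.5, 17.6 and 17.2 CPM at E18.5 and 9.39 and 8.56 CPM at P3. Each later pair lay below the earlier ones, but none of the stage differences was called (−0.60, SE 0.26, edgeR adjusted p 0.12 for E18.5 against E14.5, and −0.67, SE 0.25, edgeR adjusted p 0.083 for P3 against E18.5). The second was called without E16.5 replicate 3 (edgeR adjusted p 0.048), and both were in DESeq2 (adjusted p 0.039 and 0.022). Gjb6 had reads in only 1 SS2_20 plate, E14.5 replicate 2, with 36 reads in 2 cells. Gja1 did not exceed 3.32 CPM and Gjb2 0.961 CPM on any plate, and neither was called with stage, other than Gja1 at E18.5 without E14.5 replicate 1 (edgeR adjusted p 0.030).

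The glial connexins Gjc3 and Gjb1 were called with stage in SGN-like cells. The E16.5 (replicates 1 and 2), E18.5 and P3 plates, which had more Gjc3 than the SS2_20 plates, also had more of the glial markers, but the marker sums of P3 did not exceed those of E18.5. Gjc3 was at 0.0573 and 0 CPM at E14.5, 9.57, 10.9 and 0.122 at E16.5, 64.4 and 58.3 at E18.5, and 147 and 188 at P3. Only 1 read underlies the E14.5 value, and the pooled ratio of E18.5 to E14.5 was 2027 (95% counting interval 364 to 80070, edgeR adjusted p 0.0011). At E16.5 against E14.5 the edgeR adjusted p was 0.018 (0.088 and 0.083 without E14.5 replicate 1 or 2), and 1 of 7 members was called against 15% of genes. At E18.5 against E14.5, 2 of 7 were called against 23.5% of genes, the second being Gjb1, with 224 reads against none, at least 10.49-fold higher (edgeR adjusted p 0.041). The median log2 difference over all genes was 0.11 at E18.5 against E14.5. That Gjb1 call was lost without any 1 of 7 plates, those of E14.5, E18.5 and P3 and E16.5 replicate 1 (edgeR adjusted p 0.060 to 0.12). Between P3 and E18.5 neither Gjc3 (1.73, edgeR adjusted p 0.15) nor Gjb1 (3.23, edgeR adjusted p 0.097) was called. Without E16.5 replicate 3, whose plate series differs from that of the other E16.5 plates, both were (edgeR adjusted p 0.00011 and 0.012).

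Glial markers in the same SGN-like sums were at 28.0 to 179 CPM on SS2_20 plates, 950 and 838 at E16.5 replicates 1 and 2, 3481 and 3459 at E18.5, and 3071 and 3450 at P3. The 9 markers all had reads in the sums of the later plates. The SS2_20 plate of E16.5 had 0.122 CPM of Gjc3, and with SS2_20 plates alone the E16.5 difference was 1.81 (edgeR adjusted p 0.92). At E18.5 the 426 SGN-like cells with 3 or more glial markers had 92.7 CPM of Gjc3, and the 221 with fewer had 44 reads, or 0.54 CPM. At P3 the values were 202 CPM in 395 cells and 0.12 CPM in 106 cells. Without cells with 3 or more markers of another class, the E18.5 difference was 0.19 (edgeR adjusted p 1.0). Gjd2 did not separate in this way, with 16.48 CPM in cells with 3 or more glial markers and 20.7 CPM in those with fewer at E18.5, and 49.9 and 44.1 CPM at P3.

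Set against the summed glial markers, Gjc3 gave 185 and 169 counts per 10000 marker counts in SGN-like cells of E18.5 and 199 and 189 in glia-like cells of the same plates. In SGN-like cells of P3 the ratio was 479 and 544, and no glia-like class was summed at P3. Over all glia-like sums it was 47.1 to 201. The part of glial RNA in the SGN-like values of Gjc3 and Gjb1 was not tested further.

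**Figure D4:**
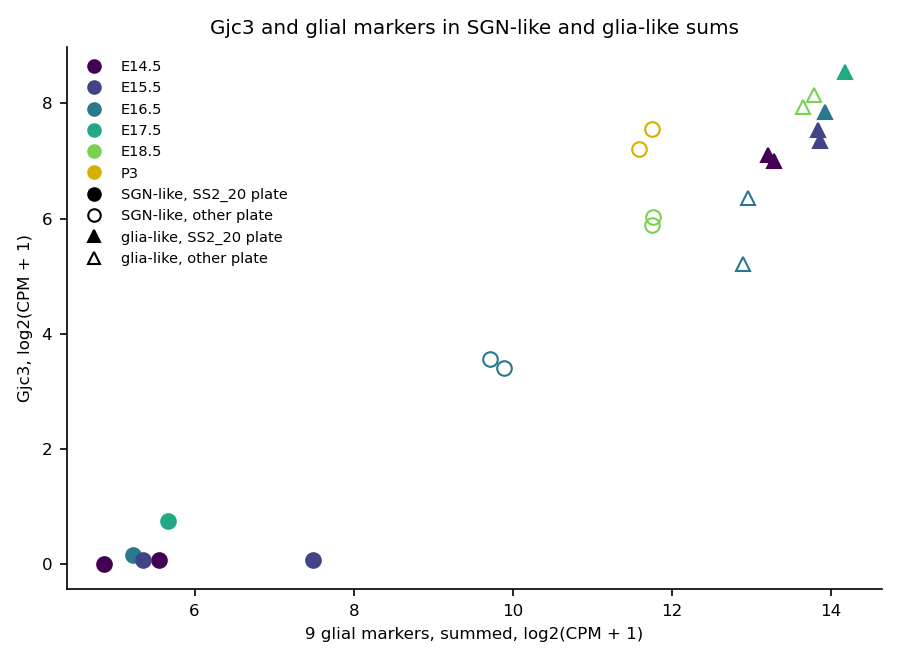
Gjc3 level on the y axis against the summed level of 9 glial markers on the x axis, both in CPM on log axes, for SGN-like and glia-like sums, 1 point per plate and class. Filled points are SS2_20 plates and open points other plates, and SGN-like points lie below 1 CPM of Gjc3 on SS2_20 plates and, at marker sums of 3071 to 3481 CPM, at 64.4 and 58.3 CPM at E18.5 and 147 and 188 CPM at P3.

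Per kilobase, the order of the members differed between the classes. On the SS2_20 plates OM-like cells had 71.7 ± 34.3 CPM per kb of Gja1, 43.8 ± 65.5 of Gjb2, 32.3 ± 4.17 of Gjc1 and 17.2 ± 11.8 of Gjb6 (SD, n = 6 plates), and Gjb2 did not differ from its neighbours in this order by more than its spread. Glia-like cells had 50.4 ± 22.9 of Gjc3, 28.9 ± 2.89 of Gjc1, 13.5 ± 3.35 of Gja1, 4.30 ± 1.72 of Gjb1 and 3.45 ± 1.23 of Gjb2. In that order the neighbours Gjc3 and Gjc1, and Gjb1 and Gjb2, differed by less than the larger SD of the pair. SGN-like cells had 9.67 ± 2.28 of Gjc1 and 6.33 ± 4.02 of Gjd2, which differed by less than the SD of Gjd2, and the rest were below 0.2 CPM per kb.

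**Figure D5:**
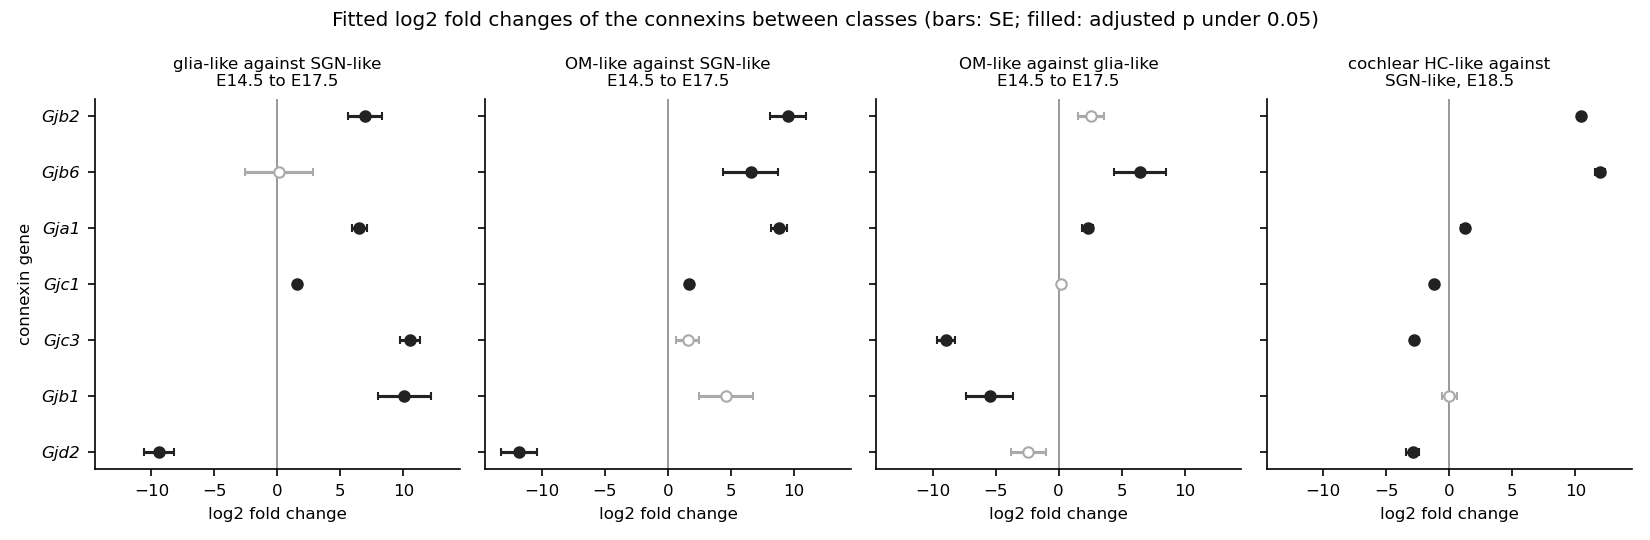
Log2 difference of the 7 connexin genes in 4 comparisons, glia-like against SGN-like, OM-like against SGN-like, OM-like against glia-like (SS2_20 plates) and cochlear HC-like against SGN-like (E18.5). Points are edgeR estimates, bars are 1 SE, and filled points have an adjusted p under 0.05, with Gjd2 below 0 and Gjb2 above 0 in each comparison with SGN-like cells.

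Of the 13 other connexins, 2 passed the filter on low counts in the class comparisons of the SS2_20 plates. Of these, Gja5 was called higher in glia-like than in SGN-like cells (6.17). Only Gja4, a connexin of blood vessels, exceeded 10 CPM in a class mean, at 43.2 CPM in the unnamed hair cells of 1 plate. Pannexins form related channels that do not dock with those of a neighbouring cell. Panx1 was at 59.5 CPM in glia-like and 186 CPM in SGN-like cells (−1.72), and it was also lower in OM-like (−1.12) and in cochlear HC-like cells (−0.94). Panx2 was lower than in SGN-like cells in glia-like (−4.45) and cochlear HC-like cells (−2.69). Panx3 was higher in glia-like cells, at 15.1 CPM against 0.09 CPM (7.24), and lower in OM-like than in glia-like cells (−7.26).

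Among the partners, Tjp1, which encodes a scaffold protein of cell junctions, was higher than in SGN-like cells in glia-like (2.06), OM-like (2.63) and cochlear HC-like cells (1.84). Cnst, which encodes a protein of connexin transport, was at 30.7 CPM in glia-like and 150 CPM in SGN-like cells (−2.35), and was lower also in OM-like (−2.07) and cochlear HC-like cells (−0.74). Between IHC-like and OHC-like cells neither of these partners was called. With stage in SGN-like cells, Panx2 was higher at E16.5 (1.68) and E18.5 (1.71) than at E14.5, Cnst was lower at both (−0.57 and −0.69), Panx1 was lower at E18.5 (−0.54) and Tjp1 higher (1.21). The E18.5 sums held 3481 and 3459 CPM of glial markers, against 45.8 and 28.0 CPM at E14.5. The part of glial RNA in these stage differences was not tested. E14.5 and E18.5 plates also came from different series, so stage and plate series cannot be told apart.

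Over 17 means of a class at a stage, the genes whose log2(CPM + 1) followed each member most closely were, as a description, Il33 for Gjb2 (r 0.97), Tcea3 for Gjb6 (0.95), Pcdh18 for Gja1 (0.98), Phldb2 for Gjc1 (0.98), Aspa for Gjc3 (0.98), Sox2ot for Gjb1 (0.88) and Rell2 for Gjd2 (0.96). They were the highest of 13438 genes with 10 CPM or more in at least 1 mean, and the means share plates and depth.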

How the data were processed

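Single red cells were sequenced by Smart-seq2 on 384-well plates, a plate being 1 sample. The authors aligned reads with STAR to mm10 and the spike-in sequences, kept uniquely mapped reads and deposited raw read counts per gene and well, without molecular identifiers, so counts are reads and not molecules. The annotation and strand setting are not given in the sources used here. Of 4992 wells, 384 (1 plate) belong to no sample here and were not used.

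The study's stated cell filter was applied. Clustering within stages (2000 variable genes, 30 components, Leiden resolution 1, Python 3.11.15, leidenalg 0.10.2) left out 1364 genes that the study treated as glial contamination and 26 connexin, pannexin and partner genes. A cluster could take the name of its best-scoring class when the mean level of the class markers reached a set minimum. At least 3 of these markers also had to be detected in a set share of its cells. It stayed unnamed when its leading genes favoured another class, or when low counts came with no leading marker. These rules were settled with the cluster tables in view, but before the tests. The members, lists and markers were chosen with earlier results of these data known. No doublet caller was run, and alternatives left out the 5% of cells with the highest counts and cells with markers of another class.

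Counts were summed per class and plate (at least 5 cells, or 3 hair cells) and tested in R 4.3.3 with edgeR 4.0.16 (TMM, filterByExpr, glmQLFit, glmQLFTest), with Benjamini-Hochberg adjustment over all genes tested and a call at an adjusted p under 0.05. Tests were two-sided. The SE is the log2 fold change divided by the square root of F. DESeq2 1.42.0 was an alternative. Scripts were tested on simulated counts. The plate is the replicate. By their driver labels the E14.5 plates hold separate animals. For the other stages the study reports pooled embryos per plate and several rounds of experiments, but not which plates share animals. The p-values therefore measure the spread between plates. Plate totals were 80997594 to 303906928 counts (median 108651215), with 232473 to 1092427 counts per cell by plate median. Intervals are at the 95% level and cover counting error only. Lengths are those of the longest GENCODE vM21 coding transcript. Replicate numbers follow accession order. Classes of 1 plate come from the same pool of animals, and the correlation of their deviations was −0.007 to 0.121. The genes named are the 7 members in every comparison, other listed genes that were called or reached 10 CPM, and the closest genes by correlation. Of the 7 members, 6 had a RefSeq promoter in the table used. Some of the listed genes are not reported here.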

Additional observations from a re-analysis of the deposited data

Results flagged for a closer look

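Within each class and gene, the highest and the lowest of the 6 SS2_20 plates were compared with the rest, over 20 sets of plate values, and 6 had 1 plate that stood apart from the others by Dixon's 95% criterion. The criterion is made for continuous values, while several of these sets rest on a few reads. Where all other plates had 0, any read gives the ratio its top value of 1, as for Gjb1, Gjb2 and Gjb6 in SGN-like cells. A chance rate of 1 in 20 therefore does not hold for such sets, and the sets are not independent.

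In SGN-like cells, E17.5 replicate 1 stood apart for Gjb1 (0.0631 CPM, 1 read), Gjb2 (0.505 CPM, 8 reads) and Gjc3 (0.694 CPM, 11 reads), where the other 5 plates had 0 CPM of the first 2 genes and 0 to 0.122 CPM of Gjc3. In the same class, E14.5 replicate 2, the plate labelled TrkCcre, stood apart for Gjb6 at 2.27 CPM, which came from 36 reads in 2 cells, against 0 on the others. In glia-like cells, E15.5 replicate 2 had 0.155 CPM of Gjd2 (8 reads), against 0 to 0.0186 CPM. In OM-like cells, E15.5 replicate 1 had 5.44 CPM of Gjb1 (53 reads), against 0 to 0.0966 CPM.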

How the results depend on the processing

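The number of connexins called changed in these settings. Cochlear HC-like against SGN-like called 3 without hair cells above the median supporting-cell marker level, and vestibular against cochlear HC-like 1. IHC-like against OHC-like called 1 in DESeq2. The glia-like stage comparison called 1 on the SS2_20 plates alone and 1 without cells with markers of another class. SGN-like E16.5 against E14.5 called 2 in DESeq2, 2 without the filter on low counts, 0 on the SS2_20 plates alone and 0 without cells with markers of another class. SGN-like E18.5 against E14.5 called 0 without those cells, and P3 against E18.5 called 3 in DESeq2. The cause was not tested.

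The number of all genes called was 329 (IHC-like against OHC-like, with OHC-like cells then on 1 plate) and 404 (vestibular against cochlear) without the hair cells of high marker level, and 1577 and 2302 without the filter on low counts. In the glia-like stage comparison it was 487 in DESeq2, 334 on the SS2_20 plates alone, 297 without cells with markers of another class, 1 with the glial code genes kept and 1 without the filter. In the OM-like stage comparison it was 102 in DESeq2, 2 under the stricter cell filter, 30 on the SS2_20 plates alone, 18 without cells with markers of another class and 18 without the filter. In SGN-like cells it was 4172 in DESeq2, 350 on the SS2_20 plates alone and 1549 without cells with markers of another class for E16.5 against E14.5, and 2772 without those cells for E18.5 against E14.5.

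Fitted log2 differences changed sign in uncalled genes. With glial code genes kept these were Gjb6 glia-like against SGN-like (−0.75), Gjc1 IHC-like against OHC-like (−0.42), Gjb2 in the glia-like stage comparison (−0.76) and Gjc1 in the OM-like one (−0.038). Without cells with markers of another class they were Gjb1 (−0.027) and Gjc3 (−0.79) OM-like against SGN-like, Gjb2 (−0.20) and Gjc1 (0.085) in the glia-like stage comparison, and Gja1 in SGN-like E18.5 against E14.5 (−2.95). On all plates Gjc3 OM-like against SGN-like was −0.67. On the SS2_20 plates alone Gjb2 in the glia-like stage comparison was −0.46, and Gja1 in SGN-like E16.5 against E14.5 −0.78. Gjb1 cochlear HC-like against SGN-like was −0.0010 with all HC-like cells, −1.21 without hair cells of high marker level, −0.028 without the filter, −0.029 without the unnamed cells and −0.023 with a plate-wise replicate block. Gja1 IHC-like against OHC-like was −1.43 without hair cells of high marker level, again with OHC-like cells on 1 plate. Gjd2 vestibular against cochlear was −0.16 without the unnamed cells and −0.38 with a plate-wise replicate block. Gjc1 in the OM-like stage comparison was −0.023 without the 5% of cells with the highest counts, and Gjb2 and Gjb6 in SGN-like P3 against E18.5 were 2.49 and 4.20 under the stricter cell filter. With a plate-wise replicate block, Gja1 cochlear HC-like against SGN-like lost its call (1.23, adjusted p 0.094), and no other call of a member changed.

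Leaving out 1 plate at a time gave these ranges. The connexins called were 6 to 7 in glia-like and 4 to 6 in OM-like against SGN-like cells, 3 in OM-like against glia-like cells, 0 in both stage comparisons of these classes, and in SGN-like cells 0 to 2 for E16.5, 1 to 3 for E18.5 and 0 to 4 for P3. All genes called were 0 to 678 in the glia-like and 0 to 32 in the OM-like stage comparison, and 1526 to 3555, 2153 to 5030 and 2138 to 5288 in the SGN-like ones. Log2 differences that changed sign were Gjb6 glia-like against SGN-like (−1.84 to 7.71), Gjb1 cochlear HC-like against SGN-like (−0.90 to 0.67), Gja1 (−0.22 to 7.52) and Gjc1 (−0.82 to 6.93) IHC-like against OHC-like, and Gjd2 vestibular against cochlear (−4.09 to 2.21). In the glia-like stage comparison they were Gjb1 (−1.01 to 0.71), Gjb2 (−0.85 to 1.99) and Gjc3 (−0.21 to 0.86), and in the OM-like one Gja1 (−0.73 to 0.013) and Gjc1 (−0.073 to 0.091). In SGN-like cells they were Gjb6 (−4.63 to 5.91) and Gjd2 (−1.07 to 0.61) for E16.5, and Gjb6 (−5.29 to 5.28) and Gjd2 (−0.17 to 1.50) for E18.5. For hair cells these are values with no test, since 1 plate is left.

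Leaving out cells with markers of another class could not be run for hair cells, since 73 of 74 had them. Depth limits the low members, with 3 counts as the floor.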
